A study of Homo sapiens with 4 samples.

Results

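The human genes for DNA replication licensing and synthesis are described here across 4 RNA sequencing libraries of bladder cancer cell lines. They are 45 genes chosen by name and known role, with earlier results of these data known, out of 56303 genes in the count table. The related lists below were chosen in the same way, so shares set against all genes do not come from lists chosen blind to these data. All 45 passed the filter on low counts, among 17689 genes in all. Cells of the line EJ transfected with the circular RNA hsa_circ_0008399 (EJ circ) were compared with EJ cells transfected with the vector (EJ vector), and cells of the line T24T transfected with the same circular RNA (T24T circ) with T24T cells transfected with the vector (T24T vector). Each of these 4 groups was 1 library, so the transfection was repeated only in the sense that it was done in both lines, and what separated the libraries beyond it is not stated. The study screened for genes downstream of the circular RNA, which has no value of its own in tables that hold 1 value per gene.

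Total counts ran from 14703455 to 18057768 per library. The genes described here took between 0.455% and 0.524% of them. Of 13 epithelial and urothelial markers, KRT7, KRT8 and KRT18 were abundant in every library (20.99 to 188.3 RPKM, reads per kilobase of gene length, scaled to the library total), UPK3A and KRT5 had 0 counts in all 4, and GATA3 and CDH1 had at most 3. The summed level of that list was 261 RPKM in EJ circ and 225 in EJ vector, and 419 in T24T circ and 397 in T24T vector. Among the leukocyte markers, PTPRC, CD3E and LYZ had 0 counts throughout, CD14 had at most 2, and CD68, which is not restricted to leukocytes, gave nearly all of a summed 6.75 RPKM in EJ circ and 4.74 in EJ vector, and of 28.1 in T24T circ and 25.8 in T24T vector. The 7 endothelial or stromal markers summed to between 0.723 and 0.831 RPKM, with DCN and LUM at 0 counts. The share of counts from mitochondrial genes was 4.01% in EJ circ and 5.40% in EJ vector, and 3.08% in T24T circ and 5.05% in T24T vector, and its part in the results below was not tested.

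A cell copies its genome once per division by preparing, or licensing, origins in G1 phase and firing them in S phase. The origin recognition complex, CDC6 and CDT1 load the ring-shaped MCM helicase onto DNA, geminin blocks CDT1 once S phase has begun, and MCM10, CDC45 and the GINS complex turn the loaded ring into a moving helicase. DNA polymerases tied to the sliding clamp PCNA then copy the strands, and E2F transcription factors with cyclin E drive the expression of many of these genes at the G1 to S border. Bladder cancer cell lines proliferate in culture, so a mixture of cells in and out of S phase is read in each library, and fewer cells in S phase cannot be told apart from less RNA of these genes per cell.

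Because E2F is a known activator of many of these genes, the E2F-type 8-base motifs TTTCCCGC, TTTCGCGC, TTTGCCGC and TTTGGCGC were searched on both strands of the RefSeq promoters (GRCh38.p14, 250 bases before to 50 after each start). Of the 45 genes, 39 had a promoter in that table, and 20 of these (51.3%) held at least 1 match, against 3.99% of 27305 gene symbols. A match was present in 4 of the 7 promoters of genes that rose with the circular RNA below and in 16 of the 32 others. A match is a run of letters and was not tested as a binding site. The promoters of the 4 risen genes with a match are shown beside that of PCNA, which also has a match. The level of PCNA was lower with the circular RNA in both lines but did not pass the test below (edgeR adjusted p = 0.0867). Matches are in capitals, overlapping matches on the 2 strands run together, and each sequence ends 20 bases after the start.
CDC6, chr17:40287629-40287898, plus strand: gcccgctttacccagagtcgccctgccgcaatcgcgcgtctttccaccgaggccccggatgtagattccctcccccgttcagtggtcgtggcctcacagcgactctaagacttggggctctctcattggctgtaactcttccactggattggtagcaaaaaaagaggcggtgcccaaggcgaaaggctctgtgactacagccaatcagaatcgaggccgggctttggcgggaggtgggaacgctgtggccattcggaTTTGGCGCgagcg
MCM2, chr3:127598161-127598430, plus strand: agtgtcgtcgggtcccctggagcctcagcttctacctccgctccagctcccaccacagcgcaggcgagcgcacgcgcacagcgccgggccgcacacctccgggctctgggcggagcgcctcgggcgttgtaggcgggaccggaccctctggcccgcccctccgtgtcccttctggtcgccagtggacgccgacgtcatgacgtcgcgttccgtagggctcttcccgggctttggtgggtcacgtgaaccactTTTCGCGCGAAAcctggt
MCM3, chr6:52284723-52284992, minus strand: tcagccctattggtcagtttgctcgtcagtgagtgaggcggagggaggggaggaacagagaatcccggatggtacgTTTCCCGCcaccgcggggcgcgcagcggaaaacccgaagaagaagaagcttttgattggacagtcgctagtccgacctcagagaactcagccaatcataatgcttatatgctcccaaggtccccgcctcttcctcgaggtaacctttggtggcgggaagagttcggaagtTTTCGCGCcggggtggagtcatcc
MCM6, chr2:135876424-135876693, minus strand: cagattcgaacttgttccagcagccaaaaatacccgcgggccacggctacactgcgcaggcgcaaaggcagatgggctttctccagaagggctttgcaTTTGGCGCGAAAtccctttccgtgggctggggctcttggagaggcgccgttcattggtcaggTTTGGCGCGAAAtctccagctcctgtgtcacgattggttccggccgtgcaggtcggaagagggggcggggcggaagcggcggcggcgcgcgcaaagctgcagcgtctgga
PCNA, chr20:5126603-5126872, minus strand: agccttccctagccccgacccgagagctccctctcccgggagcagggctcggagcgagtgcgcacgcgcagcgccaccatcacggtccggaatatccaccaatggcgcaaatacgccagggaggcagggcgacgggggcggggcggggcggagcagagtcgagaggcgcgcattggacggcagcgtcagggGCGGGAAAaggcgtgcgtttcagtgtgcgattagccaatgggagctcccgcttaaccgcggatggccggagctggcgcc
MCM6 held 2 separate stretches and MCM3 also held 2, while CDC6, MCM2 and PCNA held 1 each.

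The deposited RPKM levels differed widely between members. TYMS, the thymidylate synthase gene, was the most abundant by its median over the libraries, with 128 RPKM in EJ circ and 133 in EJ vector, and 157 in T24T circ and 178 in T24T vector. MCM3, RFC2, RRM2 and PCNA followed in that order of medians (127, 92.1, 86.5 and 78.1 RPKM). ORC5 was lowest, with 2.74 RPKM in EJ circ and 1.82 in EJ vector, and 2.22 in T24T circ and 2.28 in T24T vector. The 6 subunits of the MCM2-7 ring, which assemble in equal numbers, spanned 14.1 to 179.6 RPKM, and the 6 origin recognition genes 1.82 to 19.3 RPKM. RPKM within a complex was thus unequal in every library. These values depend on the deposited gene length, which was 7338 bases for MCM5 and 3650 for MCM3, and other lengths were not tried. With 1 library per group these levels carry no replicate error. In the order by median, RFC4 (20.03 RPKM), CDC6 (20.7) and POLD1 (20.7) were neighbours whose ranges over the libraries overlapped.

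**Figure D1:**
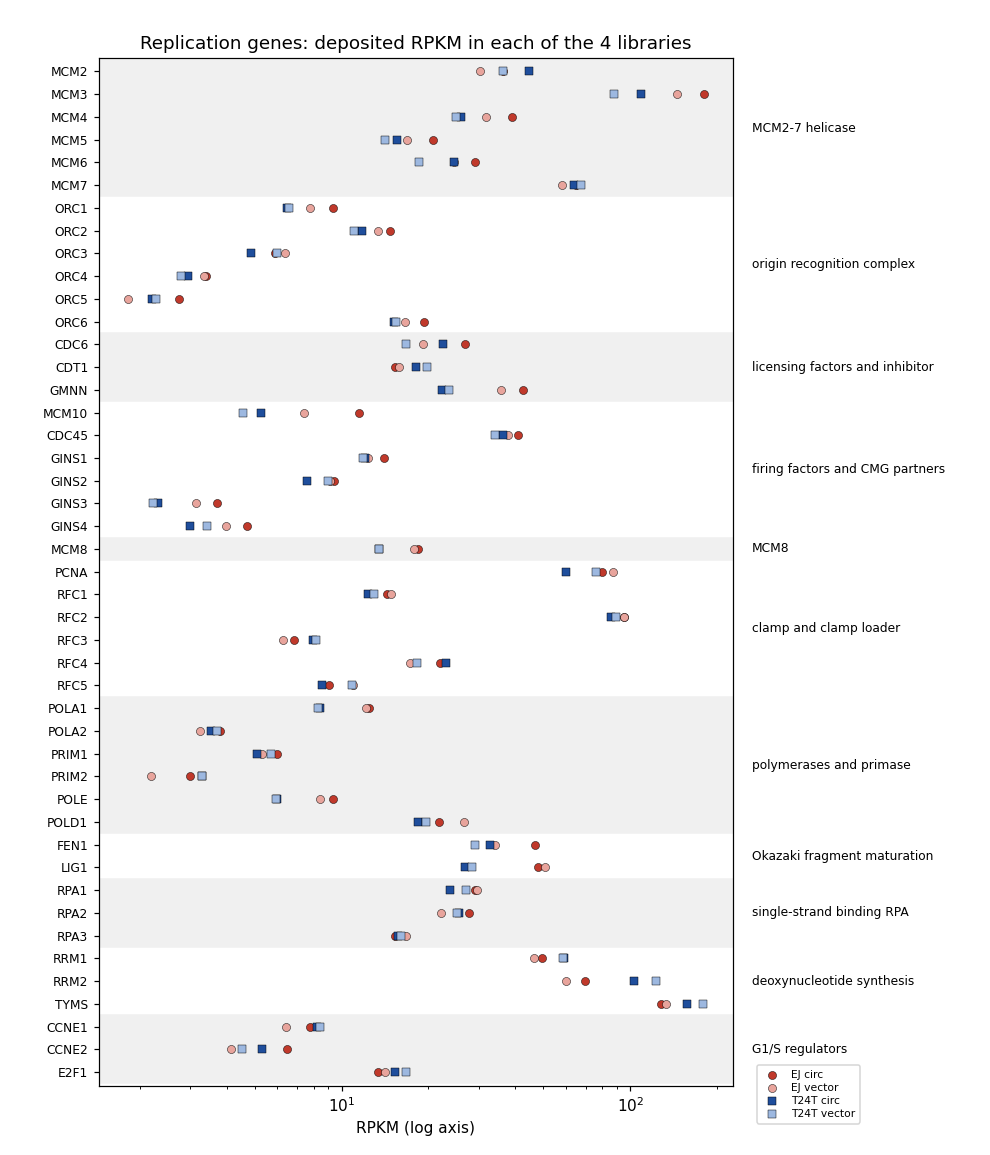
Deposited RPKM (log axis) of each of the 45 genes, grouped by role, with 1 point per library (circles EJ, squares T24T, dark circ, light vector). Levels span from 1.82 RPKM for ORC5 in EJ vector to 179.6 for MCM3 in EJ circ.

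Over both lines, 8 of the 45 genes rose with the circular RNA and 0 fell (edgeR quasi-likelihood test with the cell line as a block, Benjamini-Hochberg adjusted over all 17689 genes at 0.05). Those that rose were the licensing factor CDC6, the helicase genes MCM2, MCM3 and MCM6, the firing factor MCM10, the clamp loader gene RFC4, the flap endonuclease gene FEN1 and the cyclin gene CCNE2. They make up 17.8% of the group, against 7.13% of all genes tested that rose and 5.56% that fell. Without adjustment, 10 genes (22.2%) had an edgeR p under 0.05 upward and 3 (6.67%) downward, and the share of all genes in this fit is not given. With RLE scaling, 13 of the 45 and 4722 of all 17689 genes had an unadjusted edgeR p under 0.05, in either direction. Those shares are similar, so the unadjusted counts do not set the group apart. After adjustment, at the main scaling, 12.7% of all genes passed in either direction. DESeq2 called 1 of the 45, CDC6, upward and 0 downward, where it called 1.02% of all genes upward, 0.865% downward and 1.89% in either direction. The log2 fold changes lay between -0.29 and 0.46 with a median of 0.09, against 0.0018 for all genes tested, so the changes were small: the greatest corresponds to a ratio of 1.41 for EJ and 1.36 for T24T. The test has 1 residual degree of freedom and takes its spread mostly from other genes (30.5 prior degrees of freedom). With limma on log2(RPKM + 1), or with no block for the line, 0 of the 45 and 0 of all genes passed. At an unadjusted p under 0.05 these were 11 and 1 of the 45, and 3588 and 397 of all genes.

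CDC6, on chromosome 17 (40287633 to 40304657, hg38, plus strand), encodes the ATPase that recruits the helicase to origins. Its level was 26.7 RPKM in EJ circ and 19.1 in EJ vector, and 22.4 in T24T circ and 16.8 in T24T vector. Both circ libraries lay above both vector libraries. The log2 fold change was 0.46 ± 0.08 (SE from edgeR, over 2 lines, edgeR adjusted p = 0.000256), with log2 ratios of 0.49 for EJ and 0.44 for T24T. The partners of CDC6 in licensing did not pass. CDT1 gave 15.3 RPKM in EJ circ and 15.9 in EJ vector, and 18.0 in T24T circ and 19.8 in T24T vector (edgeR adjusted p = 0.653). GMNN, encoding geminin, had log2 ratios of 0.26 for EJ and -0.05 for T24T (edgeR adjusted p = 0.495).

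Of the 6 helicase genes, 3 rose, 0 fell, and all 6 had a positive log2 ratio in EJ and 5 in T24T. MCM3 (chromosome 6, 52264009 to 52284881) was the most abundant, with 179.6 RPKM in EJ circ and 145 in EJ vector, and 109 in T24T circ and 88.1 in T24T vector. Its rise was 0.32 ± 0.08 on the log2 scale (edgeR adjusted p = 0.00587), although EJ vector stood above T24T circ. MCM6 (chromosome 2, 135839626 to 135876426) had 29.0 RPKM in EJ circ and 24.5 in EJ vector, and 24.5 in T24T circ and 18.6 in T24T vector, a rise of 0.33 ± 0.09 (edgeR adjusted p = 0.00798). MCM2 (chromosome 3, 127598223 to 127622436) had 36.3 RPKM in EJ circ and 30.2 in EJ vector, and 44.5 in T24T circ and 36.1 in T24T vector, a rise of 0.30 ± 0.08 (edgeR adjusted p = 0.0152). The other subunits did not pass. MCM5 had log2 ratios of 0.31 for EJ and 0.16 for T24T (edgeR adjusted p = 0.0585), MCM4 of 0.31 and 0.08 in that order (0.131), and MCM7 of 0.17 and -0.06 (0.740). The summed level of the 6 genes was 370 RPKM in EJ circ and 306 in EJ vector, and 284 in T24T circ and 250 in T24T vector. MCM8, a relative that acts in recombination rather than in the licensed ring, stood at 18.3 RPKM in EJ circ and 17.8 in EJ vector, and at 13.5 in both T24T libraries (edgeR adjusted p = 0.822).

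None of the 6 origin recognition genes passed the test (edgeR adjusted p from 0.311 to 0.767). The median ratio of the 6 on the log2 scale was 0.19 for EJ and -0.0032 for T24T. ORC5 had the greatest ratio of them in EJ, from low counts of 150 in EJ circ and 106 in EJ vector, against 149 in T24T circ and 143 in T24T vector.

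Among the factors that activate the helicase, MCM10 alone rose of 6. It lies on chromosome 10 (13161554 to 13211104) and had 11.5 RPKM in EJ circ and 7.43 in EJ vector, and 5.27 in T24T circ and 4.57 in T24T vector. The rise of 0.45 ± 0.11 (edgeR adjusted p = 0.00442) joins log2 ratios of 0.63 for EJ and 0.23 for T24T, and EJ vector stood above T24T circ. CDC45, the helicase's companion subunit, had log2 ratios of 0.11 in both lines (edgeR adjusted p = 0.421). The genes GINS1 to GINS4 had ratios above 0 in EJ (0.06 to 0.25 on the log2 scale) and between -0.22 and 0.08 in T24T, and none passed (edgeR adjusted p from 0.455 to 0.867).

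The genes of the clamp and its loader had unlike values. RFC4, a small loader subunit (chromosome 3, 186789880 to 186807058), had 21.9 RPKM in EJ circ and 17.3 in EJ vector, and 23.0 in T24T circ and 18.2 in T24T vector, so that both circ libraries exceeded both vector libraries. It rose by 0.35 ± 0.09 (edgeR adjusted p = 0.00767). RFC5, another small subunit of the same loader, gave 9.08 RPKM in EJ circ and 10.96 in EJ vector, and 8.59 in T24T circ and 10.84 in T24T vector. Both circ libraries lay below both vector libraries, with -0.29 ± 0.10 (edgeR adjusted p = 0.0649), which did not pass, though with RLE scaling it did (adjusted p = 0.0399). PCNA, the clamp itself, gave 80.1 RPKM in EJ circ and 87.2 in EJ vector, and 59.7 in T24T circ and 76.1 in T24T vector. Its value of -0.22 ± 0.09 (edgeR adjusted p = 0.0867) did not pass either. RFC1, RFC2 and RFC3 had log2 fold changes of -0.04, -0.01 and 0.06 (edgeR adjusted p from 0.811 to 0.951).

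No polymerase or primase gene passed among 6 (edgeR adjusted p from 0.187 to 0.949). POLD1, the catalytic subunit of polymerase delta, gave 21.8 RPKM in EJ circ and 26.6 in EJ vector, and 18.4 in T24T circ and 19.6 in T24T vector. PRIM2, the large primase subunit, had log2 ratios of 0.45 for EJ and 0.03 for T24T, from counts of 205 in EJ circ and 160 in EJ vector, and 277 in T24T circ and 258 in T24T vector. Of the 2 genes for maturation of Okazaki fragments, FEN1 rose and LIG1, the DNA ligase gene, did not pass (edgeR adjusted p = 0.661). FEN1 (chromosome 11, 61792637 to 61797244) had 46.8 RPKM in EJ circ and 34.1 in EJ vector, and 32.7 in T24T circ and 28.9 in T24T vector. Its rise of 0.33 ± 0.09 (edgeR adjusted p = 0.0103) had log2 ratios of 0.46 for EJ and 0.20 for T24T. RPA1, RPA2 and RPA3, whose products cover single-stranded DNA, did not pass (edgeR adjusted p from 0.224 to 0.718).

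The deoxynucleotide genes RRM1, RRM2 and TYMS did not pass (edgeR adjusted p from 0.460 to 0.996). For RRM2, the regulated subunit of ribonucleotide reductase, the fold change of 0.00079 over both lines joins opposite values within them, described below. Of the G1 to S regulators, CCNE2, encoding cyclin E2 (chromosome 8, 94879770 to 94896678), had 6.50 RPKM in EJ circ and 4.14 in EJ vector, and 5.30 in T24T circ and 4.53 in T24T vector. It rose by 0.45 ± 0.12 (edgeR adjusted p = 0.0104), with log2 ratios of 0.65 for EJ and 0.25 for T24T, and both circ libraries lay above both vector libraries. CCNE1, encoding cyclin E1, had log2 ratios of 0.28 for EJ and -0.0049 for T24T (edgeR adjusted p = 0.541). E2F1, the transcription factor gene, had -0.07 for EJ and -0.11 for T24T (edgeR adjusted p = 0.618).

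**Figure D2:**
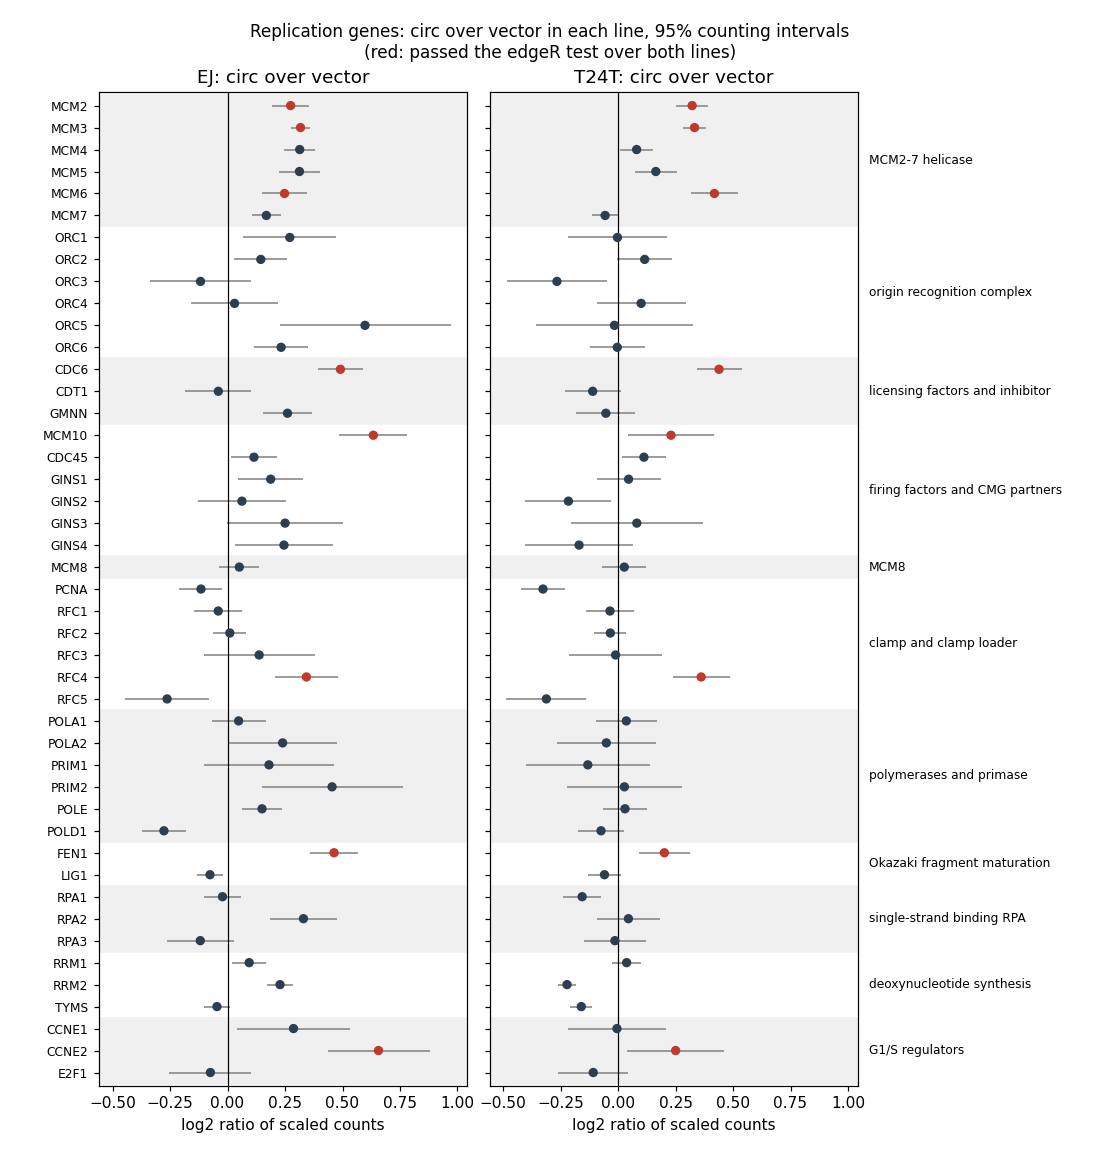
Log2 ratio of circ over vector for each of the 45 genes in EJ (left) and T24T (right), with exact 95% counting intervals as bars and the 8 genes that passed the edgeR test in red. In EJ 34 points lie above 0 and in T24T 21, and the red points lie above 0 in both panels.

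Within each line a difference has no replicate check, so ratios are given with exact 95% binomial intervals that cover counting error only. In EJ, 34 of the 45 genes (75.6%) had a log2 ratio above 0, against 49.9% of all genes tested, and the median was 0.18. In T24T, 21 (46.7%) did, against 51.0%, and the median was -0.0037. All 21 were also above 0 in EJ, so 46.7% were above 0 in both lines against 33.4% of all genes, and 11 (24.4%, against 32.3%) were below 0 in both. Past a log2 ratio of 0.32 in size, 8 genes were higher and 0 lower in EJ circ, that is 17.8% and 0% of the group against 17.2% and 16.2% of all genes, or 11.7% and 11.6% of the 12463 genes with 50 counts in each line, a filter that all 45 passed. The 8 were CCNE2, MCM10, ORC5, CDC6, FEN1, PRIM2, RFC4 and RPA2. In T24T circ, 4 were past it upward, CDC6, MCM6, RFC4 and MCM3, and 1, PCNA, was past it downward. That is 8.89% and 2.22% against 18.7% and 16.2% of all genes, or 13.4% and 12.5% of those with 50 counts. CDC6 and RFC4 were past that limit in both lines, and MCM2, with a log2 ratio of 0.32 in T24T, fell just short of it. Counts this size give tight intervals, and the interval lay above 1 for 26 genes in EJ (57.8%, against 16.7% of all genes, or 21.7% of those with 50 counts) and for 11 in T24T (24.4%, against 19.7%, or 24.2%). It lay below 1 for 4 genes in EJ (8.89%, against 16.3%, or 21.4% of those with 50 counts) and for 7 in T24T (15.6%, against 17.6%, or 22.4%).

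The greatest ratios in EJ were those of CCNE2, at 1.58 (interval 1.35 to 1.84), MCM10, at 1.55 (1.40 to 1.72), ORC5, at 1.51 (1.17 to 1.96), CDC6, at 1.41 (1.31 to 1.5), and FEN1, at 1.38 (1.28 to 1.48). In T24T the values farthest from 1 were those of CDC6, at 1.36 (1.27 to 1.45), MCM6, at 1.34 (1.24 to 1.44), RFC4, at 1.28 (1.18 to 1.40), MCM3, at 1.26 (1.22 to 1.30), and PCNA, at 0.797 (0.745 to 0.853).

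In 36 of the 45 genes (80%) the ratio was lower in T24T than in EJ, against 49% of all genes, and the median difference, T24T minus EJ, was -0.14 on the log2 scale, against 0.0069 for all genes. This difference between lines leaves no residual degrees of freedom and was not tested. The counting intervals of the lines lay apart for 10 genes, 22.2% against 9.64% of all genes, or 13.2% of those with 50 counts in each line. In 9 of them T24T was below EJ (20%, against 3.72% of all genes, or 5.10% with 50 counts): MCM4, MCM7, MCM10, GMNN, PCNA, FEN1, RPA2, RRM2 and TYMS. In the other, POLD1, the ratio was 0.950 (0.886 to 1.02) in T24T and 0.825 (0.772 to 0.882) in EJ. RRM2 was the 1 gene whose intervals excluded 1 on opposite sides, 2.22% against 1.54% of all genes. It had 5074 counts in EJ circ and 4633 in EJ vector, and 9248 in T24T circ and 10240 in T24T vector. The ratios were 1.17 (1.13 to 1.22) in EJ and 0.857 (0.833 to 0.882) in T24T. In the plot of the 2 lines against each other, most members lie below the diagonal. The risen genes CDC6, RFC4, MCM2 and MCM3 lie near it, as do CDC45, RFC1, POLA1 and LIG1, which did not rise. Of the other risen genes, MCM10, CCNE2 and FEN1 lie below it and MCM6 above it.

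**Figure D3:**
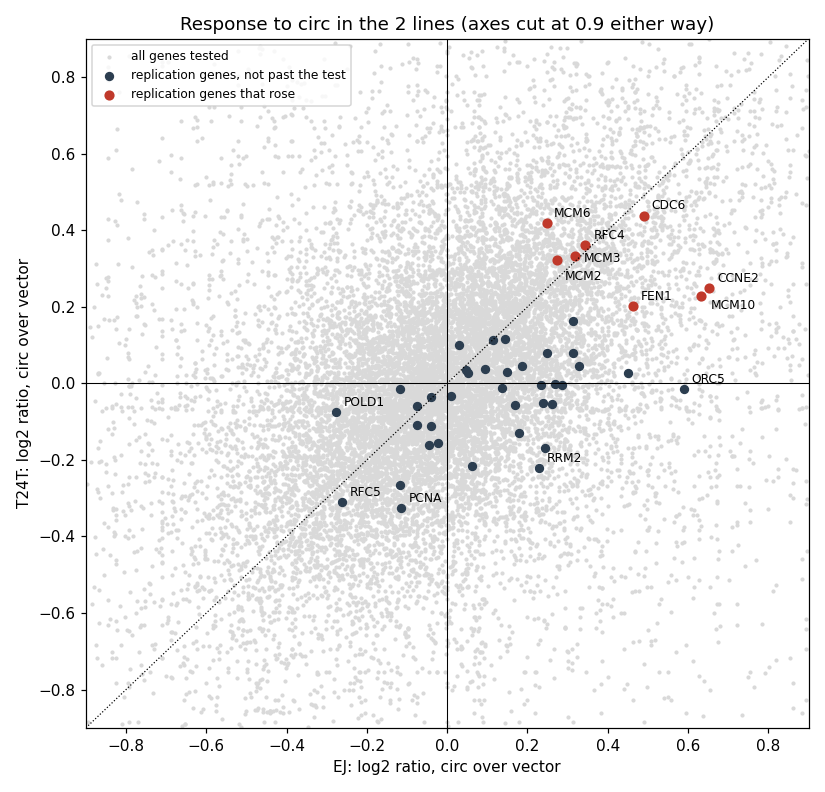
Log2 ratio of circ over vector in T24T (vertical) against EJ (horizontal) for all genes tested (grey) and the 45 genes (dark; red for the 8 that rose over both lines), with the diagonal of equal ratios dotted and both axes ending at 0.9 either way. Of the 45 points 36 lie below the diagonal, and RRM2 lies to the right of 0 in EJ and below 0 in T24T.

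The lines themselves were compared with transfection as the block, in the same fit. T24T cells differed from EJ cells in 25 of the 45 genes, where 41.4% of all genes differed, with 8 higher (17.8%, against 21.9% of all genes) and 17 lower (37.8%, against 19.5%). DESeq2 called 12 of these (26.7%, against 18.2% of all genes), 4 of them higher (against 10% of all genes) and 8 lower (against 8.15%). The median log2 fold change, T24T over EJ, was -0.12, against 0.01 for all genes.

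All 3 deoxynucleotide genes were higher in T24T. RRM2 had 103 RPKM in T24T circ and 123 in T24T vector, against 69.6 in EJ circ and 59.8 in EJ vector. The T24T libraries stood above the EJ libraries without overlap, by 0.87 ± 0.09 on the log2 scale (edgeR adjusted p = 1.74e-09). TYMS was higher by 0.42 ± 0.08 (edgeR adjusted p = 8.18e-05). RRM1, the large reductase subunit, was higher by 0.36 ± 0.08 (edgeR adjusted p = 0.000643), with 59.0 RPKM in T24T circ and 58.5 in T24T vector, against 49.3 in EJ circ and 46.4 in EJ vector. Also higher in T24T were PRIM2 (0.41 ± 0.14), RFC3 (0.36 ± 0.12), CDT1 (0.34 ± 0.09), MCM2 (0.34 ± 0.08) and E2F1 (0.29 ± 0.10), with edgeR adjusted p from 0.00135 to 0.0202. CCNE1 had 0.29 ± 0.12 and did not pass (edgeR adjusted p = 0.0509).

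Genes lower in T24T were led by MCM10, with 5.27 RPKM in T24T circ and 4.57 in T24T vector, against 11.5 in EJ circ and 7.43 in EJ vector. The log2 fold change was -0.86 ± 0.11 (edgeR adjusted p = 5.67e-08). LIG1 had 26.8 RPKM in T24T circ and 28.4 in T24T vector, against 47.9 in EJ circ and 50.8 in EJ vector, a change of -0.78 ± 0.08 (edgeR adjusted p = 2.58e-09). GMNN had 22.3 RPKM in T24T circ and 23.5 in T24T vector, against 42.5 in EJ circ and 35.7 in EJ vector, a change of -0.70 ± 0.09 (edgeR adjusted p = 1.53e-07). In all 3 genes both T24T libraries lay below both EJ libraries. Of the licensing factor CDT1 and its inhibitor geminin, the factor was thus higher in T24T and the inhibitor lower, though the difference in CDT1 did not pass in DESeq2 (adjusted p = 0.131).

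The helicase genes other than MCM2 and MCM7 were lower in T24T, MCM3 by the most (-0.65 ± 0.08, edgeR adjusted p = 4.73e-08), with MCM4 (-0.40 ± 0.09), MCM5 (-0.27 ± 0.08) and MCM6 (-0.26 ± 0.09) after it (edgeR adjusted p from 0.000300 to 0.0158). The catalytic polymerase genes POLE (-0.51 ± 0.08), POLA1 (-0.49 ± 0.09) and POLD1 (-0.28 ± 0.09) were lower as well (edgeR adjusted p from 9.11e-06 to 0.00826). POLE had 5.98 RPKM in T24T circ and 5.96 in T24T vector, against 9.32 in EJ circ and 8.44 in EJ vector. The remaining falls were those of GINS3 (-0.52 ± 0.13), GINS4 (-0.38 ± 0.12), MCM8 (-0.36 ± 0.08), ORC1 (-0.32 ± 0.11), FEN1 (-0.32 ± 0.09), PCNA (-0.25 ± 0.09) and ORC2 (-0.24 ± 0.09), with edgeR adjusted p from 0.000731 to 0.0244. Several of these values differed between the circ libraries alone and the vector libraries alone, where no test is possible. The log2 ratio of T24T over EJ was -0.58 in circ and -0.17 in vector libraries for GINS4, -0.45 and -0.18 in that order for both ORC1 and FEN1, and -0.35 and -0.14 for PCNA. For POLD1 it was -0.18 in circ and -0.38 in vector libraries, and for PRIM2 0.21 in circ and 0.63 in vector libraries. Genes far from 0 shifted too, RRM2 with 0.64 in circ and 1.09 in vector libraries, MCM10 with -1.05 and -0.64, and GMNN with -0.86 and -0.54. LIG1 (-0.77 and -0.78) and MCM3 (-0.65 and -0.66) had close values in both. Of the 8 genes that rose with the circular RNA, 5 also differed between the lines, MCM3, MCM6, MCM10 and FEN1 lower in T24T and MCM2 higher.

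**Figure D4:**
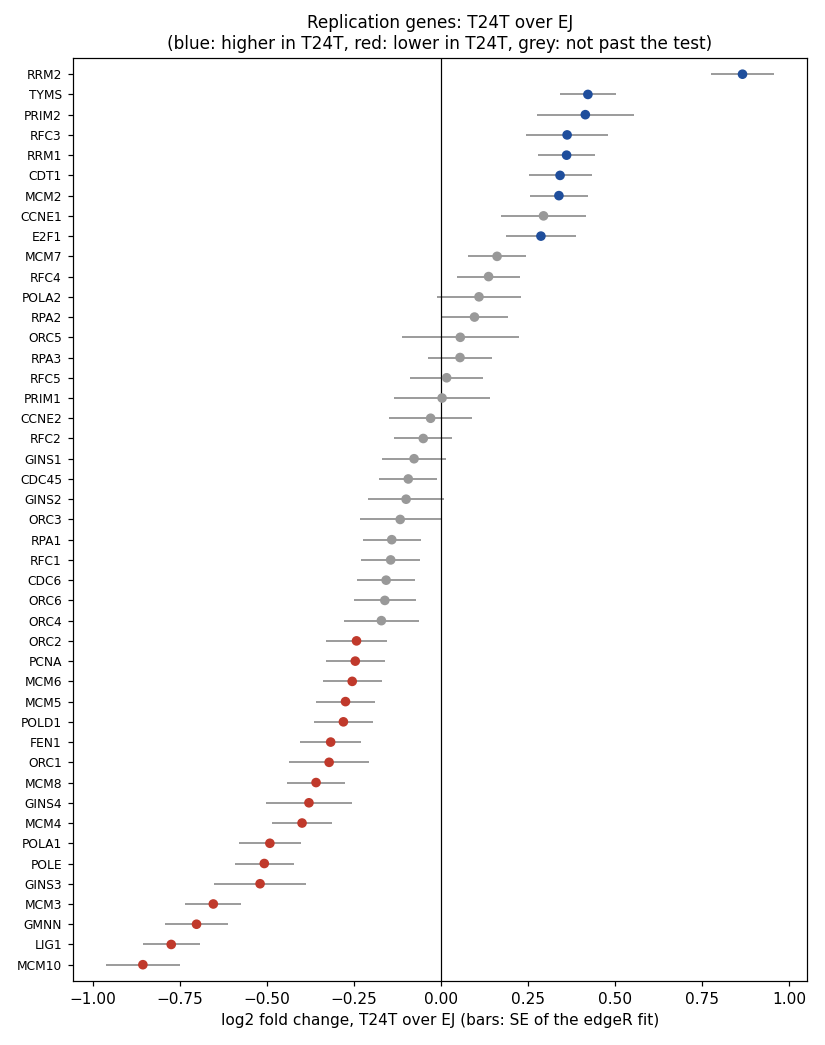
Log2 fold change of T24T over EJ for the 45 genes, ordered by value, with the SE of the edgeR fit as bars (blue higher in T24T, red lower in T24T, grey not past the test). RRM2 stands highest at 0.87 and MCM10 lowest at -0.86, with 8 blue and 17 red points.

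Other genes of the same pathway were read from lists of other replisome genes, nucleotide supply and S-phase entry control, with a mitotic list beside them. Of 34 other replisome genes, 6 rose with the circular RNA and 3 fell, with a median log2 fold change of -0.03. Those with the smallest p were CLSPN, encoding the checkpoint mediator claspin (0.38 ± 0.08), UHRF1, which guides maintenance DNA methylation (0.35 ± 0.08), the polymerase epsilon accessory gene POLE3 (0.31 ± 0.08) and the fork protection gene TIPIN (0.39 ± 0.12). The falls were those of CHTF18, of an alternative clamp loader (-0.58 ± 0.11), the helicase gene RECQL4 (-0.34 ± 0.10) and the histone chaperone gene ASF1B (-0.36 ± 0.12). Of 14 nucleotide supply genes, 4 rose and 1 fell, with a median of 0.13. Among them the purine synthesis genes GART (0.40 ± 0.08) and ATIC (0.27 ± 0.08) and the pyrimidine synthesis gene CAD (0.29 ± 0.09) rose, and the dUTPase gene DUT fell (-0.26 ± 0.09). All edgeR adjusted p named in this paragraph lay between 0.000705 and 0.0431, against the same background shares of 7.13% risen and 5.56% fallen.

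Of the 26 tested among 28 genes of S-phase entry control, 2 rose and 3 fell, with a median log2 fold change of -0.10. These counts and those of the mitotic list stand against 7.13% of all genes tested that rose and 5.56% that fell. RBL1, encoding the pocket protein p107, rose by 0.57 ± 0.10 (edgeR adjusted p = 0.000128), with 809 counts in EJ circ and 623 in EJ vector, and 900 in T24T circ and 538 in T24T vector. CDK2, the kinase partner of cyclin E, rose by 0.31 ± 0.09 (edgeR adjusted p = 0.0145). The pocket protein genes RBL2 (-0.35 ± 0.10) and RB1 (-0.40 ± 0.12) fell, as did E2F5 (-0.44 ± 0.13), with edgeR adjusted p from 0.0134 to 0.0215. In the mitotic list, 0 of 30 rose and 9 fell (median log2 fold change -0.19, which was -0.12 for EJ and -0.23 for T24T). FOXM1, a transcription factor gene of the G2 phase (-0.38 ± 0.09), the cyclin F gene CCNF (-0.42 ± 0.11), TOP2A, encoding a topoisomerase (-0.30 ± 0.08), and PTTG1, encoding securin (-0.31 ± 0.08), had the smallest p (edgeR adjusted p from 0.00495 to 0.0105). DESeq2 called GART and RBL1 among these lists and 0 of the mitotic genes, where it called 1.02% of all genes upward and 0.865% downward. The median of the replication genes (0.09) lay above that of all genes tested (0.0018) and that of the mitotic genes below it. By line, the replication median was 0.18 for EJ, against 0 for all genes, and -0.0037 for T24T, against 0.0082. It thus lay above that of all genes in EJ and not in T24T. The difference between the lists was not tested.

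**Figure D5:**
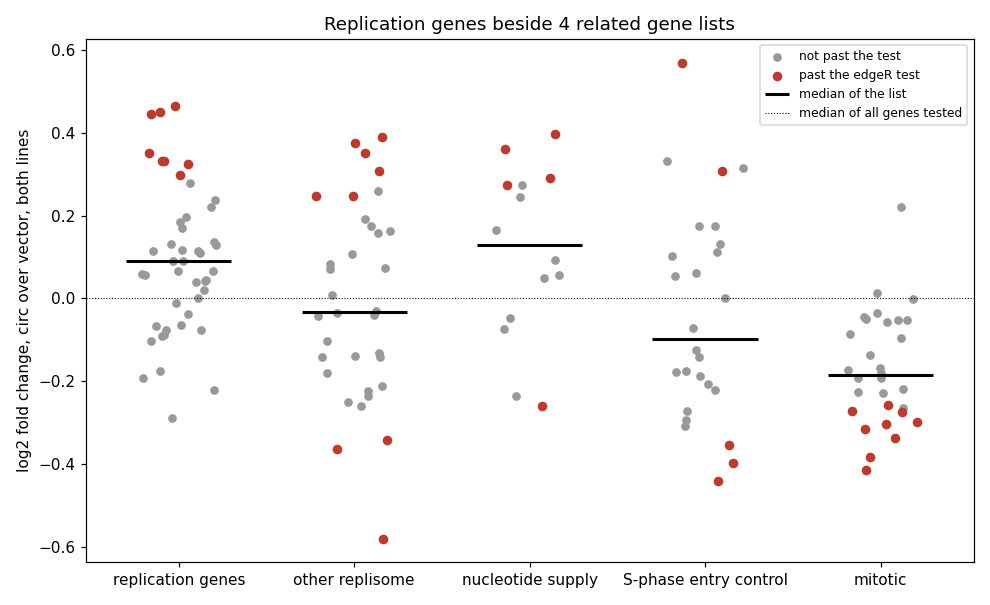
Log2 fold change of circ over vector over both lines for the 45 genes and the 4 related lists, with 1 point per gene (red past the edgeR test), the list median as a bar and the median of all genes tested as a dotted line. List medians run from 0.13 for nucleotide supply and 0.09 for the replication genes to -0.19 for the mitotic list.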

How the data were processed

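RNA sequencing read counts of 4 libraries, 1 per group, were used. Trimmomatic, HISAT2 and hg38 are named in the submitters' processing notes. The counting tool, annotation and strand use are not given in the sources used here, so reads of overlapping genes on opposite strands may not be told apart. Of the 45 genes, PRIM1, POLD1 and FEN1 shared exon bases with another gene of the table (1.35%, 8.77% and 1.98%). RRM2 has pseudogene copies, the most abundant with 25 counts. The authors deposited raw counts per gene, and a table of RPKM that equals count over gene length and library total in 100% of values (relative tolerance 1e-06). Columns were matched to samples by description, where T24T is written T24.

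Genes with 10 or more counts in a library and 20 or more in all were kept and TMM-scaled. Transfection (circ over vector) was tested across the lines in edgeR (4.0.16) by quasi-likelihood, blocked on line, and T24T against EJ in the same fit with transfection as the block. SE is the fold change over the square root of F. The pairing comes from the shared cell line. Ratios within a line used a prior count of 2, with a log2 limit of 0.32. Their intervals are exact Clopper-Pearson 95% intervals on the counts. Gene members and lists were chosen with earlier results of these data known. All 45 genes are accounted for, with statistics for those past a test, the 5 farthest from 0 in each line and, of the other lists, up to 4 per direction by smallest p, and some genes of those lists are not reported here. Alternatives were RLE factors, library size alone, other filters, other prior counts, a 1.5-fold limit, DESeq2 (1.42.0), limma (3.58.1) voom, limma on log2(RPKM + 1) and log2(RPKM + 0.1), a fit without the block, and single lines. Nothing states separate cultures beyond the 4 libraries, so p-values do not measure the spread between repeated cultures. The edgeR p-values rest on 1 residual degree of freedom, the difference in transfection ratio between the lines. The rest of their spread is borrowed from other genes of the same libraries (30.5 prior degrees of freedom) and may be technical. The edgeR step was tested on simulated data with known changes.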

Additional observations from a re-analysis of the deposited data

Results flagged for a closer look

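RRM2 differed between the lines in direction. Its log2 ratio of circ over vector was 0.23 for EJ and -0.22 for T24T, and its counting interval excluded equality in each. It was singled out because the lines moved in opposite ways, among members whose intervals exclude equality in both. The difference itself was not tested, since each line has 1 library per group.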

How the results depend on the processing

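In circ over vector over both lines, 8 members rose with each of RLE scaling, library size alone, no filter and the filter of 50 counts. Of all genes, 1380 of 17689, 1158 of 17689, 1143 of 29817 and 945 of 12463 rose in that order. The same 8 rose with limma-voom, which added MCM5, where 1321 of 17689 genes rose. RLE scaling also called 1 member lower, RFC5, where it called 1279 of 17689 genes lower. DESeq2 called 334 genes against 2246, and 1 member higher. Limma on log2(RPKM + 1), limma on log2(RPKM + 0.1) and edgeR without the cell-line block each called 0 genes and 0 members (11, 11 and 1 members, and 3588, 3713 and 397 genes, at an unadjusted p under 0.05). The 8 fold changes kept their sign in all 11 settings, each line alone included. The median over the 45 genes was 0.18 in EJ alone and -0.0037 in T24T alone.

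For T24T over EJ, DESeq2 called 3217 genes against 7315, with 4 members higher and 8 lower. Without the transfection block 3192 genes were called (1944 higher and 1248 lower), with 1 member higher and 6 lower. Limma on log2(RPKM + 1) called 4 members higher and 13 lower, where 2492 and 2585 of all 17689 genes were called. On log2(RPKM + 0.1) it called 4 members higher and 15 lower, against 2691 and 2806 of all genes. The median was -0.18 in the circ libraries alone and -0.04 in the vector libraries alone. Within EJ, 3 members were 1.5-fold higher, where 13.3% of all genes passed that fold in either direction, and 5 were past a log2 ratio of 0.32 on log2(RPKM + 1), where 15.6% of all genes passed in place of 33.4%. Within T24T, 0 were 1.5-fold higher and 0 lower (13.8% of all genes either way), and 2 were past -0.32 with library size alone, on log2(RPKM + 0.1) and with no filter (34.9%, 32.7% and 47.2% of all genes either way). With RLE scaling or library size alone 2 members, RRM2 and MCM7, had intervals on opposite sides of equality. With the main scaling it was 1 member, against 1.54% of all genes, and the share of all genes is not given for the other scalings. No called value changed sign in these settings. The cause of the lost calls was not tested. Leaving out a line gives values with no test.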
